A study of Mus musculus with 18 samples.

Results

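Adrenergic receptors are the cell surface receptors for norepinephrine and epinephrine, and 8 of their genes were followed here, 3 for α1 receptors (Adra1a, Adra1b, Adra1d), 3 for α2 receptors (Adra2a, Adra2b, Adra2c) and 2 for β receptors (Adrb1, Adrb3). They were found by gene identifier among the 55487 genes of the deposited count table, and all 8 had a row. RNA had been sequenced from small intestinal organoids, 3-dimensional epithelial cultures grown from the crypts of 5 female wild-type C57BL/6 mice. From passage 4 on, the cultures had received 1 μM norepinephrine (5 samples), its vehicle HCl (4 samples), 1 μM UK 14,304 (5 samples) or its vehicle DMSO (4 samples) over 4 days. All 5 mice contributed a culture to each agonist, and the vehicles were represented by mice 1 to 4. The age of the mice is not given in the labels, and all 18 cultures were epithelium without nerves, muscle or immune cells added.

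The 3 classes of receptor differ in the G protein they activate. α1 receptors couple to Gq, which turns on phospholipase C and raises calcium, α2 receptors couple to Gi and Go, which lower cyclic AMP, and β receptors couple to Gs, which raises it. In the gut, norepinephrine is released by sympathetic nerve fibres, some of which end close to the crypts, and α2 agonists are known to favour salt and water absorption by the epithelium. Norepinephrine can act on every class. UK 14,304, also called brimonidine, is a synthetic agonist selective for α2 receptors. The authors describe it as specific for α2 receptors and, elsewhere, for the α2A receptor.

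The reads were 50 bases long, so the stretches where the receptor genes are most alike decide whether a read can be given to 1 of them. Over the 28 pairs of the 8 genes, the longest run of identical bases shared by any pair of transcripts was 30, for Adrb1 and Adrb3, and the longest that Adra2a shared with another of these genes was 26, with Adra2c. The 50 coding bases in which Adra2a and Adra2c are closest are shown here, since no coding stretch of Adra2a was closer to another of these genes, together with the best match of the same Adra2a bases in Adra2b. They were read 5′ to 3′ on the + strand from the GENCODE M21 transcripts (GRCm38), at chr19:54046461-54046510 for Adra2a, chr2:127363718-127363767 for Adra2b and chr5:35280141-35280190 for Adra2c, and capitals mark the bases that differ from Adra2a.
Adra2a: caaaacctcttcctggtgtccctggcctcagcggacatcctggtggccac
Adra2b: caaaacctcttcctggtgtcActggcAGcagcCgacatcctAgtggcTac
Adra2c: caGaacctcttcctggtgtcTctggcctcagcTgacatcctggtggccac
Adra2b differs at 6 and Adra2c at 3 of these 50 bases. Adra2a and Adra2b come closest elsewhere, with 4 mismatches in 50 coding bases, and no window of 50 coding bases was closer than 3 mismatches in any of the 28 pairs. The segment lies within the coding sequence of each gene, at coding bases 247 to 296 of Adra2a, 154 to 203 of Adra2b and 256 to 305 of Adra2c.

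Total counts were between 21.87 and 27.85 M per library. Ribosomal RNA of the gene CT010467.1 took over 1% of the counts in 7 libraries (HCl vehicle 1, norepinephrine 2, DMSO vehicle 3, UK 14,304 1). Libraries also leaned differently on GC content. The slope of log2 expression per 10 percentage points of GC averaged 0.0624 (SD 0.0130) over the 4 HCl vehicle libraries and -0.0445 (SD 0.137) over the 5 norepinephrine libraries. It averaged 0.0600 (SD 0.0708) over the 4 DMSO vehicle libraries and -0.0535 (SD 0.108) over the 5 UK 14,304 libraries. The cultures held epithelium. The 6 epithelial markers summed to between 5768 and 6394 CPM (reads scaled to library size with TMM factors) in every library, with Epcam, a surface adhesion protein of epithelial cells, at 655 RPKM (CPM per kilobase of merged exon). The 21 markers of mesenchyme, endothelium, immune cells, neurons and glia together summed to 4.21 to 5.62 CPM with HCl vehicle, 4.27 to 5.27 CPM with norepinephrine, 3.71 to 5.26 CPM with DMSO vehicle and 4.16 to 6.81 CPM with UK 14,304. Among them Dcn, a matrix protein of fibroblasts, had 0 counts in all 18 libraries.

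Of the 8 receptor genes, Adra2a was the one with reads in every library. It was counted 12445 times over the 18 libraries, and the other 7 genes together 20 times. Adra2a therefore took 99.8% of the 12465 reads on these genes (exact 95% binomial interval 99.8% to 99.9%, which like the other counting intervals and floors covers counting error only). In the plot of reads per library, all 18 points of Adra2a lie between 571 and 830 counts and all points of the other 7 genes at 3 counts or below.

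**Figure D1:**
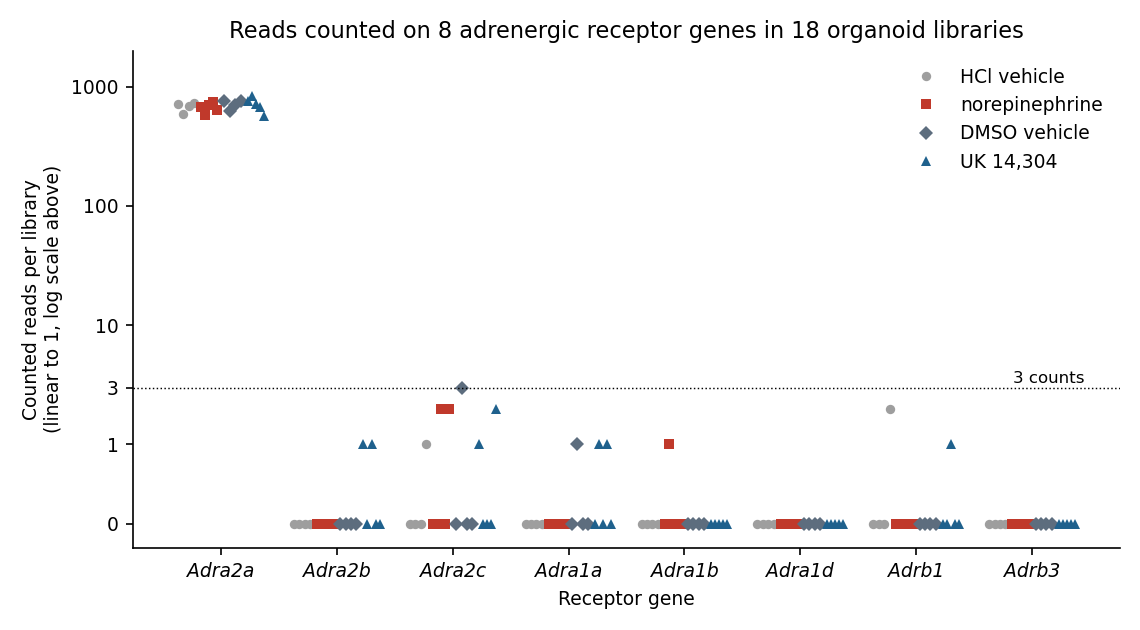
Reads counted on each of the 8 receptor genes (x axis) in each of the 18 libraries (y axis, linear to 1 count and logarithmic above; the dotted line marks 3 counts), with 1 point per library and the treatment groups by shape and colour. Adra2a lies between 571 and 830 counts in every library, and no library has more than 3 counts of any other gene shown.

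Adra2a encodes the α2A receptor, which on nerve endings limits the release of norepinephrine and in several epithelia and endocrine cells lowers cyclic AMP. The gene (ENSMUSG00000033717, chr19:54044151-54048982 on the + strand of GRCm38) is a single exon of 4832 bases that no other gene of the table overlaps. Its mean level was 5.79 ± 0.410 RPKM (SD, n = 18), which was above that of 54.0% of the 15247 genes that passed the filter on low counts, where the median gene had 4.79 RPKM.
With HCl vehicle, Adra2a was at 30.2, 26.8, 29.8 and 29.9 CPM in mice 1 to 4, a mean of 29.2 ± 1.61 CPM (SD, n = 4). With norepinephrine it was at 27.6, 26.4, 28.5, 29.1 and 25.1 CPM in mice 1 to 5, a mean of 27.3 ± 1.62 CPM (SD, n = 5). The ranges overlap, with mouse 2 the lowest of the HCl vehicle libraries and mouse 5 the lowest with norepinephrine.
With DMSO vehicle the gene was at 29.5, 25.5, 27.2 and 31.0 CPM in mice 1 to 4, a mean of 28.3 ± 2.45 CPM (SD, n = 4). With UK 14,304 it was at 27.5, 29.8, 29.5, 25.6 and 24.7 CPM in mice 1 to 5, a mean of 27.4 ± 2.27 CPM (SD, n = 5). Here too the ranges overlap, and 4 of the 5 UK 14,304 libraries lie within the range of the DMSO vehicle.
The highest of the 18 libraries had 1.26 times the level of the lowest. The coefficient of variation over all libraries was 7.08%, against 3.82% that counting alone gives at this depth. By mouse, the means were 28.7, 27.1, 28.7 and 28.9 CPM for mice 1 to 4 (4 libraries each) and 24.9 CPM for mouse 5 (2 libraries, both with an agonist). Mouse 5 has no vehicle library, so its low level enters the agonist means and not the vehicle means.

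The first comparison asks whether a receptor gene whose product both agonists can bind changed in level after 4 days of exposure. With norepinephrine against HCl vehicle, Adra2a had a log2 fold change of -0.094 (SE 0.0697, adjusted p = 0.734, edgeR's quasi-likelihood test, adjusted over 15247 genes by the Benjamini-Hochberg method). The 95% interval of the difference ran from 15.3% lower to 3.64% higher. The exact permutation test of this single gene, over 126 arrangements, gave p = 0.151 (two-sided, smallest possible p = 0.00794). Within mice, Adra2a was lower with norepinephrine in 4 of 4 mice, by -0.13, -0.02, -0.06 and -0.04 on the log2 scale in mice 1 to 4, and the exact sign-flip permutation test gave p = 0.125, which is the smallest p that 4 mice allow. With the mouse as a block, the log2 fold change was -0.060 (SE 0.0639, adjusted p = 0.743).
Adra2a, the 1 of the 8 receptor genes that passed the filter and was tested, did not pass an adjusted p of 0.05 in this comparison, where 0% of all genes tested were called without the block (edgeR; DESeq2 also called 0, and 943 genes had an unadjusted p under 0.05) and 0.105% (16 of 15247) with it.

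With UK 14,304 against DMSO vehicle, the log2 fold change of Adra2a was -0.046 (SE 0.0694, adjusted p = 0.815, edgeR), with a 95% interval from 12.4% lower to 7.09% higher. The exact permutation test gave p = 0.587 (two-sided). Within mice the direction was divided, with -0.10 and -0.28 in mice 1 and 4 and 0.22 and 0.12 in mice 2 and 3 on the log2 scale (exact sign-flip permutation test, p = 1). The block left -0.011 (SE 0.0633, adjusted p = 0.949). Adra2a was not called, where 0.0394% of all genes tested were called without the block (6 of 15247, and 46 by DESeq2) and 1.22% with it (186 of 15247).
The plot of Adra2a by mouse shows the lines of the norepinephrine panel sloping slightly down together and those of the UK 14,304 panel crossing.

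**Figure D2:**
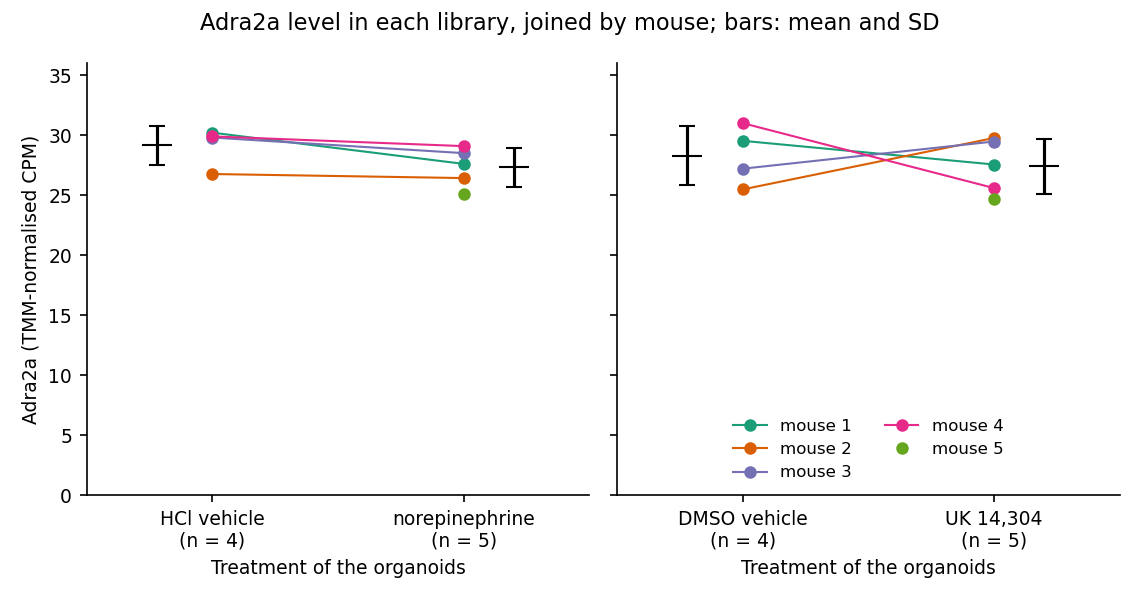
Adra2a in TMM-normalised CPM (y axis, from 0) in each library by treatment (x axis), with vehicle and agonist libraries of the same mouse joined; black bars are the mean and SD of each group. All 4 norepinephrine lines fall, by at most 0.13 on the log2 scale, and 2 of the 4 UK 14,304 lines rise.

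The 2 agonist effects differed by 0.048 on the log2 scale (UK 14,304 effect minus norepinephrine effect, adjusted p = 1, edgeR), and the interval of this difference ran from 10.3% lower to 19.2% higher. HCl vehicle against DMSO vehicle gave 0.044 (adjusted p = 1). In both comparisons Adra2a was not called and 0% of all genes tested were called, by edgeR and by DESeq2, and an unadjusted p under 0.05 was found for 230 and 194 genes by edgeR.

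Adra2a is rich in G and C. The GC content of its longest transcript is 58.6%, which is higher than in 93.3% of the 15229 tested genes with a value (median 49.6%), and the GC slope of the libraries was lower on average with both agonists. When the GC trend was removed from each library, the log2 fold change was 0.00055 with norepinephrine and 0.034 with UK 14,304, and with the block in addition 0.027 and 0.063, so that the sign turned in both comparisons. The smallest adjusted p of Adra2a over the 29 alternatives was 0.443 with norepinephrine and 0.637 with UK 14,304. The plot of its fold change by fit shows that every interval drawn includes 0.

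**Figure D3:**
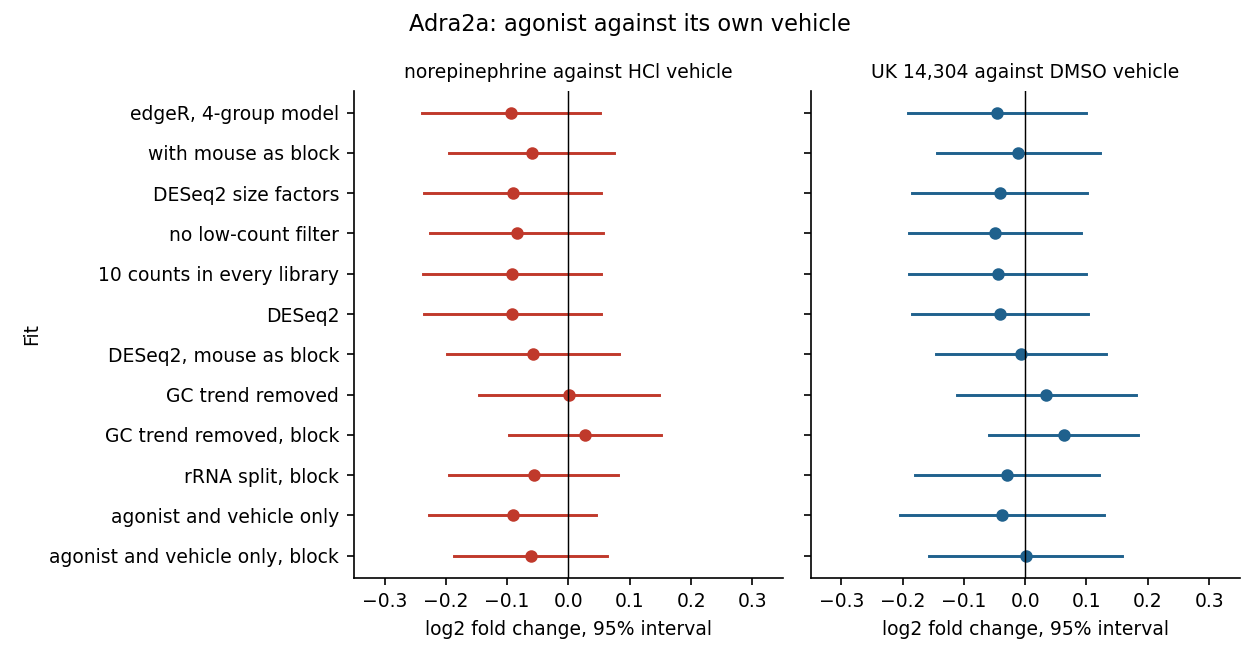
Log2 fold change of Adra2a (x axis) for norepinephrine against HCl vehicle (left) and UK 14,304 against DMSO vehicle (right) under each fit named on the y axis; points are estimates and lines 95% intervals. The main estimates are -0.094 and -0.046, the GC-corrected ones lie at 0.00055 and 0.034, and all intervals cross 0.

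The other α2 genes were at the limit of detection. Adra2c encodes the α2C receptor, best known from neurons, where it also limits transmitter release. The gene (ENSMUSG00000045318, chr5:35278319-35281763, + strand) had 11 counts in all, which were 1 with HCl vehicle (mouse 4), 4 with norepinephrine (2 each in mice 3 and 5), 3 with DMSO vehicle (all in mouse 2) and 3 with UK 14,304 (1 in mouse 1 and 2 in mouse 5). The other 12 libraries had 0. Per length, Adra2a was 807 times as high over the 18 libraries (exact 95% counting interval 451 to 1616).
Adra2b encodes the α2B receptor, known for contracting blood vessels. The gene (ENSMUSG00000058620, chr2:127363208-127367221, + strand) had 2 counts, 1 each in mice 1 and 3 with UK 14,304, and 0 in the other 16 libraries. The ratio of Adra2a to Adra2b per length was 5169, with a counting interval of 1431 to 42688.

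The α1 genes, whose products drive smooth muscle contraction, were counted 4 times in all or not at all. Adra1a (ENSMUSG00000045875, chr14:66635251-66771168, + strand) had 1 count in mouse 2 with DMSO vehicle and 1 each in mice 2 and 4 with UK 14,304. Adra1b (ENSMUSG00000050541, chr11:43774606-43901210, - strand) had 1 count, in mouse 2 with norepinephrine. Adra1d (ENSMUSG00000027335, chr2:131545850-131562283, - strand) had 0 in all 18 libraries. The ratio of Adra2a to each per length was 7493 for Adra1a (2563 to 36340) and 8710 for Adra1b (1563 to 344072). For Adra1d, 0 counts allow up to 0.00355 RPKM over its whole exon length (3 counts over all 18 libraries). On that basis its level was at least 1630-fold lower than that of Adra2a.

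Among the β genes, Adrb1, which encodes the β1 receptor of heart muscle, had 3 counts. The gene (ENSMUSG00000035283, chr19:56722199-56733113, + strand) had 2 of them in mouse 4 with HCl vehicle and 1 in mouse 3 with UK 14,304, and the ratio of Adra2a to it was 2903 (993 to 14081). Adrb3 (ENSMUSG00000031489, chr8:27225776-27250616, - strand), which encodes the β3 receptor of fat cells, had 0 in all 18 libraries. Over its whole exon length that allows up to 0.00200 RPKM and puts it at least 2898-fold lower than Adra2a. Reads over more than 1 gene had not been counted. That touches 24.9% of the exon bases of Adrb3 (839 of 3376), which the antisense gene Gm45470 also covers, and 7.74% of those of Adra1d (147 of 1899), covered by Gm14285. Both of these neighbours were at 0 too, and the other 6 receptor genes share no exon base with another gene. On the unshared bases alone, the limits of Adrb3 and Adra1d in RPKM would be higher and their folds below Adra2a smaller.

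Ordered by mean RPKM, Adra2a at 5.79 was followed by Adra2c at 0.00717, Adrb1 at 0.00201, Adra2b at 0.00108, Adra1b at 0.000753, Adra1a at 0.000727, and Adra1d and Adrb3 at 0. The lowest library of Adra2a, at 5.10 RPKM, was above the highest library of Adra2c, at 0.0353 RPKM. All other neighbours in this order overlap at 0 and cannot be placed at this depth, where 3 counts in a single library are 0.108 to 0.138 CPM. Of all 55487 genes in the table, 58.2% had 11 counts or fewer over the 18 libraries, and 39.9% had 0.
The 7 low genes did not pass the filter, which asks for counts in at least one group's worth of libraries. Without the filter, 5 of them could be fitted, and 0 of the 5 were called in any comparison (edgeR; 0 had an unadjusted p under 0.05, and DESeq2 was not run on genes under the filter). That fit called 0.0659% of its 33375 genes for UK 14,304 and 0% in the other comparisons. The lowest unadjusted p among the 5 was 0.0888 with norepinephrine and 0.147 with UK 14,304. By group, the 7 genes together had 3 counts with HCl vehicle, 5 with norepinephrine, 4 with DMSO vehicle and 8 with UK 14,304. None of the 7 genes had more than 3 counts in any library, and differences among counts this low were not detectable at this depth. In bulk RNA, fewer cells that express a gene and less RNA per cell cannot be told apart, and this holds for Adra2a as well.

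The genes that act with these receptors were taken from 7 lists of 50 genes in all, of which 32 were tested. The α subunits of the G proteins were present for each class. Gnai3 and Gnai2, 2 of the subunits through which α2 receptors inhibit adenylyl cyclase, were at 81.0 and 52.8 RPKM, whereas Gnai1, the subunit best known from brain, was at 0.122 RPKM (2 to 18 counts per library). For Gq, Gna11 was at 187 RPKM and Gnaq at 12.4 RPKM, and Gna14 did not pass the filter. Gnas, which encodes Gs, was at 1.02 RPKM over 11387 bases of merged exon. Of these bases, 21.6% also belong to Nespas or Gm20721, where reads were not counted. Leaving out reads there can only lower the value, so the level of Gnas beside Adra2a and the other subunits is uncertain. On the RPKM scale Gnai3, Gnai2, Gna11 and Gnaq were above Adra2a.
Receptor kinases mark the active receptor for arrestin and so for uncoupling and uptake. Grk6 was at 28.5 RPKM, Grk2 at 22.1 RPKM, Grk3 at 4.71 RPKM and Grk4 at 0.0936 RPKM. Of the accessory proteins that carry receptors to the surface, Reep6 was at 150 RPKM, Reep1 at 2.18 RPKM and Reep2 at 0.0751 RPKM, the last under the filter. RGS proteins speed the end of G protein signals. The highest of their 15 genes was Rgs13, which tuft cells express, at 2.93 RPKM, with Rgs3 at 1.62 RPKM, Rgs2 at 1.35 RPKM and Rgs1 at 0 in every library.
Of the other receptors for catecholamines or for imidazoline drugs, Drd1 had 0 counts, Drd2 1 count and Drd3 1 to 10 counts per library. Nisch, nischarin, a candidate imidazoline binding protein found inside cells, was at 20.5 RPKM. UK 14,304 carries an imidazoline ring. The plot of levels by list places the receptor genes beside these lists and the markers.

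**Figure D4:**
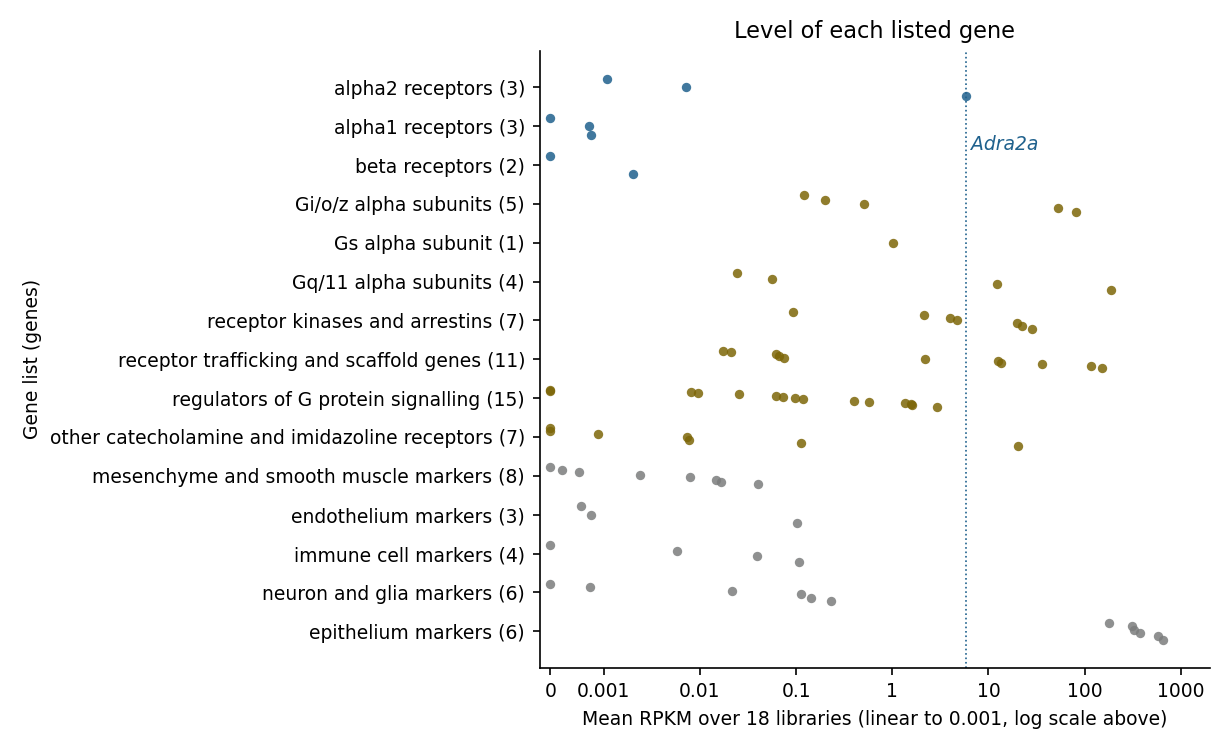
Mean RPKM over the 18 libraries (x axis, linear to 0.001 and logarithmic above) of every gene in the lists named on the y axis, with the number of genes in parentheses; each point is 1 gene and the dotted line marks Adra2a at 5.79 RPKM. Adra2a stands above all other receptor genes shown except Nisch, and all 6 epithelium markers stand above it.

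Of the 32 tested genes on the 7 lists, 0 were called with norepinephrine and 0 with UK 14,304, without and with the block, by edgeR and by DESeq2, and 0 in every alternative run. With norepinephrine and no block, 13 were higher and 19 lower with a median log2 fold change of -0.04, beside -0.0077 over all genes tested. Of the 32, 3 had an unadjusted p under 0.05 (edgeR), beside 943 of all 15247 genes. With the block these were 5 and 1280. With UK 14,304 and no block, 13 were higher and 19 lower with a median of -0.05, beside -0.0041 over all genes tested. Here 3 of the 32 had an unadjusted p under 0.05 (edgeR), beside 1708 of all 15247 genes. With the block these were 4 and 2256. The shares of all genes called are those given for Adra2a.
By list and without the block, the 8 tested RGS genes had medians of 0.05 with norepinephrine and 0.17 with UK 14,304. Of these 8, 6 were above 0 with each agonist. In the same fit the 8 tested accessory and scaffold genes had medians of -0.08 and -0.10, with 6 and 7 of 8 below 0. The 7 kinases and arrestins had medians of -0.06 and -0.01, and the 5 Gi, Go and Gz subunits 0.03 and -0.14. The adjusted p of every gene on these lists was at least 0.395 without the block and 0.213 with it.

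**Figure D5:**
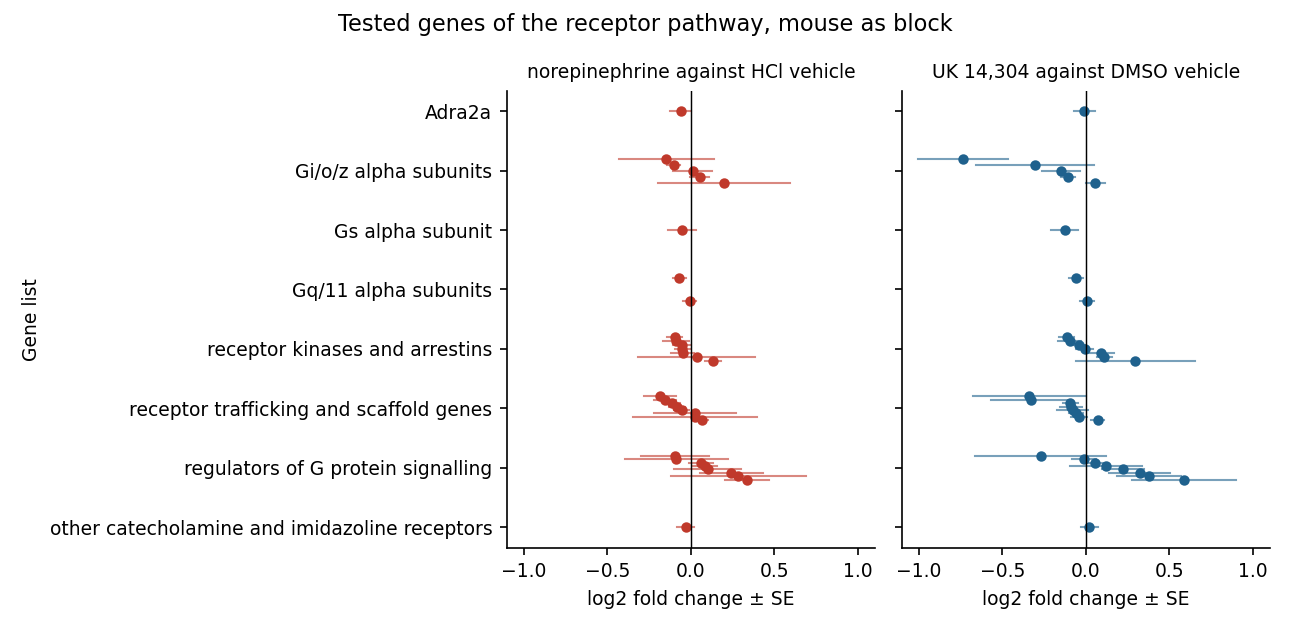
Log2 fold change (x axis, lines are ± SE) of Adra2a and of the tested genes on each of the 7 lists (y axis) for norepinephrine against HCl vehicle (left) and UK 14,304 against DMSO vehicle (right), from the edgeR fit with the mouse as a block. The points lie on both sides of 0, and none of the genes passed an adjusted p of 0.05.

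Some Paneth cell markers were lower with each agonist, and 1 goblet cell marker with UK 14,304, when the mouse was a block. Without the block, 0 of the 34 epithelial markers were called by edgeR or DESeq2. With the block, 2 of 5 Paneth cell markers were lower with norepinephrine, and 3 of 5 Paneth cell and 1 of 4 goblet cell markers were lower with UK 14,304. Lyz1, the lysozyme of Paneth cells, fell by 0.37 and 0.31 on the log2 scale (SE 0.0501 and 0.0501, adjusted p = 0.00190 and 0.00310, edgeR with the block), and Defa22, an α-defensin, fell by 0.69 and 0.70 (adjusted p = 0.00620 and 0.00208). Ang4, a Paneth cell ribonuclease, fell by 0.27 with UK 14,304 (adjusted p = 0.0220) and was at -0.29 with norepinephrine (adjusted p = 0.0702). Agr2, a disulphide isomerase of mucus cells, fell by 0.16 with UK 14,304 (adjusted p = 0.0324) and was at -0.15 with norepinephrine (adjusted p = 0.255). The other goblet cell markers were not called and were divided in direction. With norepinephrine and UK 14,304, Tff3 was at -0.19 and -0.23, Clca1 at -0.10 and -0.07, and Muc2 at 0.0019 and 0.11. Without the block, the values of Defa22, Lyz1 and Ang4 leaned on single libraries. Whether the sizes with the block do so was not tested, since single libraries were left out only without it. In the fit without the block, leaving out mouse 3 of the DMSO vehicle moved the UK 14,304 value from -0.68 to -0.25 for Defa22, from -0.29 to -0.18 for Lyz1 and from -0.28 to -0.18 for Ang4. With norepinephrine, the value of Defa22 went from -0.64 to -0.37 without mouse 3 and that of Lyz1 from -0.35 to -0.23 without mouse 1 of the HCl vehicle. The 5 Paneth cell markers summed to 2332 to 3571 CPM with HCl vehicle, 1904 to 2663 CPM with norepinephrine, 2224 to 3439 CPM with DMSO vehicle and 1940 to 2887 CPM with UK 14,304. The stem cell markers, led by Olfm4 at 1217 RPKM, summed to 4348 to 5467 CPM, 4525 to 6266 CPM, 3929 to 6328 CPM and 4816 to 6837 CPM in the same order of groups, and 0 of them were called without or with the block. The part of the Paneth and goblet cell marker differences in the level of Adra2a was not tested.

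The genes whose pattern over the 18 libraries was most like that of Adra2a, by Pearson correlation of log2 CPM among the 15247 tested genes, were Nelfa (r = 0.841), a subunit of the NELF complex that pauses RNA polymerase II, Imp4 (r = 0.831), which takes part in making ribosomal RNA, Klf12 (r = 0.809), a zinc finger repressor, Tmem242 (r = 0.768) and Zbtb45 (r = 0.759). Within groups, the correlations were 0.828, 0.852, 0.834, 0.768 and 0.737. These are a description of 18 libraries that come from the same 5 mice and differ in depth and GC slope. Klf12 was at 0.962 CPM on average, and Nelfa and Imp4 at 49.1 and 84.5 CPM.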

How the data were processed

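RNA from 18 organoid samples was sequenced by the authors as 50 bp single reads (KAPA mRNA HyperPrep libraries). The authors mapped them with STAR 2.7.3 to GRCm38 and handled alignments with SAMtools 1.9. The deposited counts are raw read counts per gene, without normalization, beside the merged exon length in bases. The header of the deposited table names featureCounts 2.0.1 with Ensembl 102, whereas the methods name Subread 1.6.4 and an earlier Ensembl release. Neither strand nor reads mapping to several places or several genes were used, so antisense reads cannot be told from sense reads.

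Counts were analysed with edgeR 4.0.16 in R 4.3.3 (TMM, filterByExpr by group, robust quasi-likelihood fit, all 18 samples in one model of the 4 groups, 15247 genes, Benjamini-Hochberg threshold 0.05). A gene is said to be called, to rise or to fall where its adjusted p is under 0.05. RPKM is TMM-normalised CPM per kilobase of merged exon. Receptor transcripts were compared in GENCODE M21. Same-numbered samples come from the same mouse. The deviations from group means of same-mouse pairs had a mean correlation of 0.283 for norepinephrine and HCl vehicle (lowest 0.119) and 0.351 for UK 14,304 and DMSO vehicle (lowest 0.155), against -0.0704 and -0.0864 for different mice, so the mouse was used as a block in an alternative fit. DESeq2 1.42.0 was another alternative. The fit was tested on simulated data for UK 14,304 against DMSO vehicle, with 200 of 15247 genes changed. It found 90% of the genes with a log2 fold change of 1, and 65% at 0.5. The simulated counts had no differences between mice, and their spread followed the trend over genes rather than each gene's own. These shares therefore need not hold for the real data.

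Genes of the text were the 8 receptor genes, and from 18 lists the genes called with or without the block, the gene of highest RPKM and, from the 7 pathway lists, the first 3, and the 5 genes correlating best with Adra2a. The exceptions are CT010467.1, Muc2, Clca1 and genes named because they share exon bases with these or had 0 counts. All of these exceptions were chosen after their values were seen. The receptor genes and lists were chosen with earlier results of these data known. Another gene of the family is not reported here.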

Additional observations from a re-analysis of the deposited data

Results flagged for a closer look

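In 8 of the 124 groups of libraries checked (31 genes in 4 groups), the highest or lowest library lay further from the others than Dixon's 95% limit allows. Chance flags about 1 in 20 groups. For Adra2a this was mouse 2 with HCl vehicle, at 26.8 CPM against 29.8 to 30.2 CPM in the other 3 libraries. Without this library, the log2 fold change of Adra2a with norepinephrine was -0.13 in place of -0.094 (adjusted p = 0.830, edgeR). Among the other genes, Gnai1 was at 0.162 CPM in mouse 4 with HCl vehicle and at 0.743 CPM in mouse 3 with UK 14,304, Reep6 at 329 CPM and Rgs13 at 6.55 CPM in mouse 3 with DMSO vehicle, Defa24, a Paneth cell α-defensin, at 799 CPM in mouse 2 with norepinephrine, and the endothelial marker Pecam1 at 0.81 CPM and the macrophage marker Csf1r at 0.162 CPM in mouse 2 with DMSO vehicle. None of the named genes had a difference between the agonist effects past the threshold.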

How the results depend on the processing

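Neither Adra2a nor any gene of the 7 pathway lists was called in any of the 4 comparisons under any alternative run. Of the 7 low receptor genes, 5 were fitted only without the filter and were not called there. Adra1d and Adrb3, at 0 counts, could not be fitted. The direction of the Adra2a estimate was less stable. It turned to 0.00055 with norepinephrine and 0.034 with UK 14,304 when the GC trend was removed, to 0.027 and 0.063 with that and the replicate block, and to 0.00076 with UK 14,304 when only the agonist and its own vehicle were fitted with the block. Leaving out each library in turn gave -0.13 to -0.057 with norepinephrine, -0.092 to 0.0030 with UK 14,304 (the sign turned without mouse 4 of the DMSO vehicle), -0.0050 to 0.094 for the difference between the agonist effects and -0.0053 to 0.091 for HCl against DMSO vehicle (the sign turned in both without mouse 2 of the DMSO vehicle).

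The count of all genes called with norepinephrine went from 0 to 16 with the block, 34 with DESeq2 and the block, 31 with the GC trend removed and the block, 16 with the ribosomal RNA split and the block, and 15 with only the agonist and its vehicle and the block. With UK 14,304 it went from 6 to 22 without the filter, 186 with the block, 46 with DESeq2, 272 with DESeq2 and the block, 20 with the GC trend removed, 626 with that and the block, 78 with the ribosomal RNA split and the block, 1 with only the agonist and its vehicle, 525 with that and the block, and 2 at an adjusted p under 0.01. Leaving out each library gave 2 to 11 (2, 3, 3 and 2 without mice 1 to 4 of the DMSO vehicle, 11 without mouse 4 with norepinephrine). DESeq2 with the block called 1 gene for the difference between the agonist effects. The causes of these shifts were not tested. The block changed the call of Lyz1, Defa22, Ang4 and Agr2, as given above, and not that of Adra2a, the only receptor gene in those fits. Across the 5 fits with the block, 2 to 4 of the 34 epithelial markers were called with norepinephrine and 2 to 8 with UK 14,304, and 10 were called in at least one fit. With norepinephrine, Ang4 was among them with DESeq2 and with only the agonist and its vehicle, and Agr2 with DESeq2 and with the GC trend removed.

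The level of Adra2a was 5.79 RPKM with DESeq2's size factors, and 5.75 to 5.83 RPKM without each library. Its share of the summed level of the 8 genes was 99.8% by RPKM, by CPM, with DESeq2's size factors and per coding length from the GENCODE annotation, the last chosen after seeing the data. The coding length from a protein table was not run. Depth limits the 7 low genes, whose fits rest on 11 counts or fewer.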
